A study of Mus musculus with 27 samples.

Results

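The soluble nucleoplasm and the chromatin-associated RNA of mouse primary cortical neurons (mCtx) were compared gene by gene, using 3 nucleoplasm and 3 chromatin libraries chosen by their labels among 27 libraries of the series. The neurons were plated on poly-L-lysine and kept 5 days in culture, and the labels name no treatment and no genetic change. Comparisons were also made with mESC (the embryonic stem cell line E14, grown with LIF) and a neural progenitor line (mNPC, grown with EGF and FGF), each divided into the same fractions and a cytoplasm fraction. Replicates are labelled biological, but whether they came from separate animals or separate platings is not given, so p-values measure the spread between these samples. RNA longer than 200 nt was depleted of ribosomal RNA and sequenced without poly(A) selection, so intron-containing and non-polyadenylated RNA was counted with mature mRNA.

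A transcript is made on chromatin, where most of its introns are removed while the polymerase is still moving along the gene. Finished mRNA leaves the site of transcription and passes through the nucleoplasm to the nuclear pores, whereas some RNAs stay bound to chromatin, Xist on the inactive X chromosome being the best known. Box H/ACA small nucleolar RNAs (snoRNAs), which guide pseudouridylation of ribosomal RNA, are cut out of the introns of host genes and work in nucleoli or Cajal bodies.

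Counts totalled 15037665 to 15896164 per nucleoplasm library and 13777927 to 17695437 per chromatin library, against 11249862 to 19871198 over all 27 libraries. All 12 neuron markers, among them Tubb3, Neurod6 and Slc17a7, were at 1 TPM (the authors' transcript abundance, scaled to a fixed library sum) or more in all 9 mCtx libraries, and their summed level was 1593 to 1957 TPM in nucleoplasm and 606 to 676 TPM in chromatin. Markers of other cells of the cortex were also present: 5 of 9 interneuron, 7 of 9 neural progenitor, 5 of 8 astrocyte and 2 of 8 oligodendrocyte lineage markers reached 1 TPM in every mCtx library, and none of the microglia, endothelial, fibroblast or pluripotent markers did. Summed progenitor markers were at 93.9 to 115 TPM in nucleoplasm and 61.5 to 67.0 TPM in chromatin, and summed astrocyte markers at 104 to 131 and 92.4 to 115 TPM, whose part in the results was not tested. In bulk samples, fewer cells of a type and less RNA per cell cannot be told apart, and because each fraction was scaled to its own total, a higher level means a larger share of that fraction and not more molecules per cell.

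Short genes for ribosomal, respiratory, cytoskeletal and secretory-pathway proteins were higher in nucleoplasm, and long neuronal genes, many intronic snoRNA genes and Xist were higher in chromatin. Of 18252 genes tested with edgeR's quasi-likelihood test, 5033 (27.6%) were higher in nucleoplasm and 5517 (30.2%) were lower at a Benjamini-Hochberg adjusted p under 0.05, so 57.8% were called in either direction. Of these calls, 4983 (27.3% of genes tested) and 5424 (29.7%) had groups that did not overlap, and 2050 (11.2%) and 1164 (6.38%) passed a test for a change of at least 2-fold. CPM, the level used throughout, divides the reads over a whole gene span, introns included, by the effective size of the library, and log2 fold changes are nucleoplasm minus chromatin with their standard error (SE). The balance of higher and lower depended on the scaling. Higher calls were 47.7% of all calls with the trimmed-mean scaling used here and 67.7% with total counts, which moved the median of all genes by 0.27, from -0.06 to 0.21 on the log2 scale. They were 37.7% in the deposited TPM after rescaling by the median ratio, where 25.0% of genes were higher and 41.2% lower. TPM are scaled by transcript length, whereas the counts were taken over whole gene spans.

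**Figure D1:**
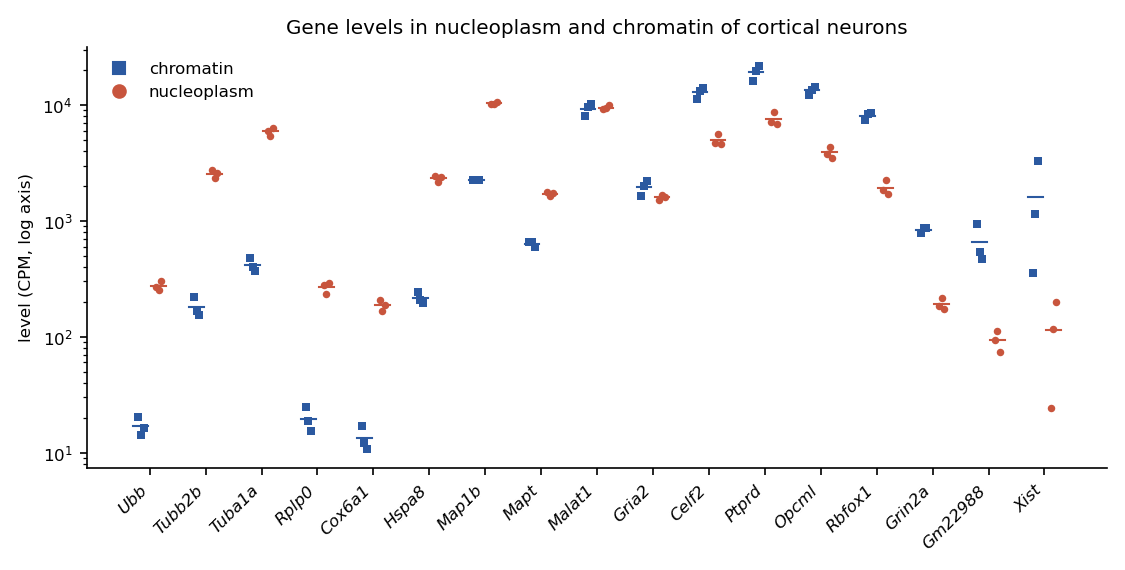
Levels (CPM, log axis) of 17 genes in the 3 chromatin (blue squares) and 3 nucleoplasm (red circles) libraries of mCtx, with a line at each mean. Ubb was at 251 to 300 CPM in nucleoplasm and 14.2 to 20.3 in chromatin, Malat1 overlapped between the fractions, and Xist was higher in every chromatin library while ranging widely within each fraction.

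The largest rises in nucleoplasm were at short genes. Banf1, a small protein that bridges chromatin and the nuclear lamina, was at 40.4, 36.9 and 49.0 CPM in nucleoplasm and 2.05, 2.00 and 1.53 CPM in chromatin. Its nucleoplasm libraries were all far above its chromatin libraries, and the log2 fold change was 4.49 (SE 0.22, adjusted p = 5.2e-15). Ubb, a polyubiquitin gene, was at 269, 251 and 300 CPM against 20.3, 14.2 and 16.3 CPM, a log2 fold change of 4.02 (SE 0.23, adjusted p = 7.1e-14). The fractions of Ubb did not overlap, and its cytoplasm level was 527 ± 8.57 CPM (SD, n = 3). Others among the 10 largest rises at a mean of 10 CPM or more were the brain-expressed X-linked gene Bex4 (4.11), the cytokine gene Mif (4.02), the tubulin genes Tubb2b (3.83) and Tuba1a (3.83), the cytochrome c oxidase subunit gene Cox6a1 (3.82) and the ribosomal stalk protein genes Rplp1 (3.82) and Rplp0 (3.78). The remaining one, Gm22133 (4.25), is a microRNA gene lying wholly inside Ftl1, the ferritin light chain gene, on the same strand, so its reads cannot be told apart from those of Ftl1 (3.72). At 100 CPM or more the largest rises also took in the actin-severing factor Cfl1 (3.73), Ftl1, the oxidase subunit gene Cox4i1 (3.68) and the translation elongation factor gene Eef1a1 (3.64).

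Translation and respiration genes were almost all higher in nucleoplasm. Of 80 cytosolic ribosomal protein genes tested, 77 were higher in nucleoplasm and none was lower, with a median log2 fold change of 2.66 beside -0.06 over all genes. Rplp0 was at 282, 236 and 291 CPM in nucleoplasm and 24.9, 18.6 and 15.4 CPM in chromatin, so that its lowest nucleoplasm library was far above its highest chromatin library. The 3 genes that did not pass were Rpl10l, Rpl3l and Rpl39l, which are paralogs of other members. The smallest called rise was that of Rps3 (0.61, edgeR adjusted p = 0.018), which rose by 3.35 in rescaled TPM. Among nuclear-encoded subunits of the oxidative phosphorylation complexes, 74 of 76 were higher and none was lower, with a median of 2.08. The exceptions were the complex I subunit gene Ndufs4 (-0.07, SE 0.12) and the ATP synthase subunit gene Atp5o (-0.05, SE 0.10), which span 100 and 247 kb. In rescaled TPM both rose, by 2.36 and 2.37 on the log2(TPM + 1) scale. Ribosomal protein genes took 0.732% ± 0.0605 of all counts in nucleoplasm and 0.0996% ± 0.0155 in chromatin (SD, n = 3 each), groups that did not overlap (exact two-sided permutation test, p = 0.10, the smallest that 3 against 3 can give).

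RNA encoded by the mitochondrial genome, which is not made in the nucleus, followed the same direction. It took 2.01%, 2.06% and 2.30% of counts in the nucleoplasm libraries and 0.106%, 0.122% and 0.101% in the chromatin libraries, with the same exact p of 0.10. The oxidase subunit gene mt-Co1 was at 9226, 9354 and 10415 CPM in nucleoplasm and 682, 787 and 682 CPM in chromatin, 13.5-fold higher on average, and at 3569, 4033 and 4527 CPM in cytoplasm. Each nucleoplasm library was thus above each cytoplasm library for mt-Co1 as well. The mitochondrial large ribosomal RNA mt-Rnr2 was 24.0-fold higher in nucleoplasm (6426, 7132 and 8043 against 237, 359 and 303 CPM), and mt-Rnr1 23.3-fold. The complex I genes mt-Nd1, mt-Nd2, mt-Nd4 and mt-Nd5 were 10.7-fold to 12.6-fold higher, and mt-Nd6, a complex I gene on the other strand of the mitochondrial genome, was 23.4-fold higher. With mitochondrial genes kept in the edgeR fit, 28 were called higher in nucleoplasm and none lower. The mitochondrial share moved with the rises of the nuclear-encoded lists described here, and its part in them was not tested.

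**Figure D2:**
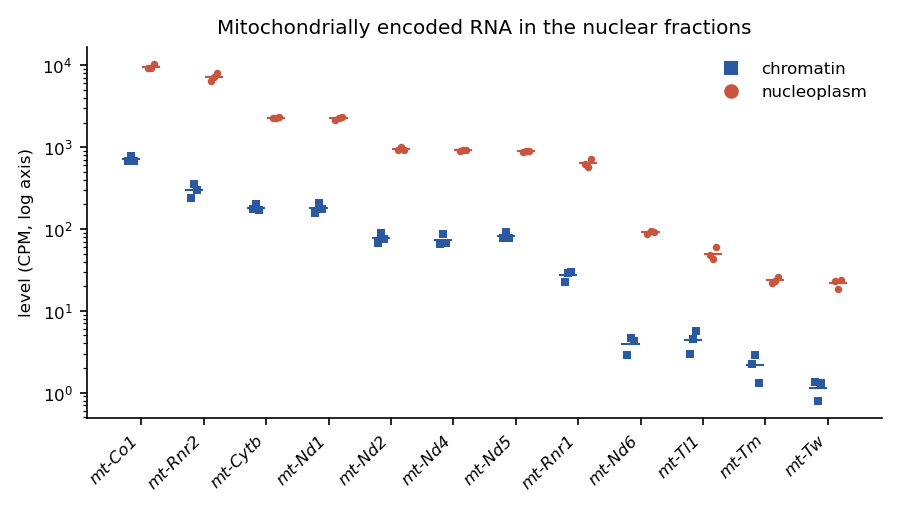
Levels (CPM of nuclear-gene library size, log axis) of the 12 mitochondrially encoded genes at a mean of 10 CPM or more in 3 chromatin (blue squares) and 3 nucleoplasm (red circles) libraries of mCtx, with a line at each mean. The fractions did not overlap for any of the 12, and mt-Co1 was 13.5-fold higher in nucleoplasm.

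Cytoskeletal and cytosolic neuronal mRNAs rose together. Of 44 such genes, 42 were higher and none was lower, with a median of 2.68. Tuba1a, the main neuronal alpha-tubulin gene, was at 6005, 5456 and 6278 CPM in nucleoplasm and 476, 400 and 369 CPM in chromatin, with no overlap. Map1b, which encodes a microtubule-associated protein, was at 10253, 10166 and 10603 CPM against 2267, 2262 and 2253 CPM, a log2 fold change of 2.19, and had the highest mean count level of all genes in nucleoplasm. The 2 genes that did not pass were the growth cone protein genes Gap43 and Basp1. Gap43 was at 703, 710 and 706 CPM in nucleoplasm and 605, 718 and 745 CPM in chromatin, which overlapped. In TPM the same gene was at 271, 219 and 233 in nucleoplasm and 36.2, 37.6 and 34.0 in chromatin, without overlap, a rise of 3.05 after rescaling (limma).

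Messages translated at the endoplasmic reticulum were also higher. Of 38 genes for secretory-pathway chaperones and enzymes, 33 were higher and 1 was lower, with a median of 1.56. Hspa5, the lumenal Hsp70 chaperone, was at 468, 434 and 486 CPM in nucleoplasm and 58.8, 55.4 and 53.2 CPM in chromatin, a log2 fold change of 3.05 (SE 0.20). Its nucleoplasm levels also stood above its cytoplasm level of 211 ± 10.4 CPM, as did those of the lectin chaperone gene Canx (818 to 848 CPM against 530 ± 37.1 CPM). The lower gene was Erp44, a chaperone of the early secretory pathway, at -0.60 in counts and 0.22 in rescaled TPM. Of 35 genes for secreted and membrane proteins of neurons, 26 were higher, among them the granin gene Scg2 (3.27), the somatostatin gene Sst (3.05) and the prosaposin gene Psap (2.76). Of the 4 lower ones, Nrxn3 (-1.57) and Nlgn1 (-1.33) encode synaptic adhesion proteins and Syt1 (-1.02) a calcium sensor of release.

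Histone mRNAs, which are short and mostly without introns, were higher in nucleoplasm. Of 57 replication-dependent histone genes, 41 were higher and none was lower, with a median of 2.00. Hist1h4d was at 59.9, 48.2 and 48.3 CPM against 12.3, 9.55 and 9.47 CPM. Its fractions did not overlap, with a log2 fold change of 2.32, but the copies of these genes are nearly identical and how the authors shared reads among them is not stated. Of 9 replacement histone genes 8 were higher, and the exception was the macroH2A1 gene H2afy (-0.64 in counts, 0.42 in rescaled TPM).

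Gene span went with the fraction across the whole set of protein-coding genes. Of the 3827 under 10 kb, 56.8% were higher in nucleoplasm and 6.35% lower, and the median log2 fold change was 1.01. The medians of the next 3 classes, up to 30, 100 and 300 kb, were 0.21, -0.34 and -0.95. Of the 506 genes of 300 kb or more, 0.593% were higher and 92.9% lower, with a median of -1.36. In rescaled TPM the medians of the shortest and longest class were 0.44 and -0.30, so the order of span classes was the same and its range narrower. Genes of 100 kb or more took 41.9%, 44.3% and 41.1% of counts in nucleoplasm and 65.2%, 66.9% and 67.7% in chromatin, and genes under 10 kb took 10.9% ± 0.518 and 3.58% ± 0.365 (exact permutation p = 0.10 for both). Single-exon genes had a median of 1.73, against -0.43 for genes of 16 or more exons. In genes of 30 to 100 kb, however, the medians were -0.66 with 2 to 3 exons and -0.31 with 16 or more, and in rescaled TPM the order was the reverse, at 0.49 and -0.12.

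**Figure D3:**
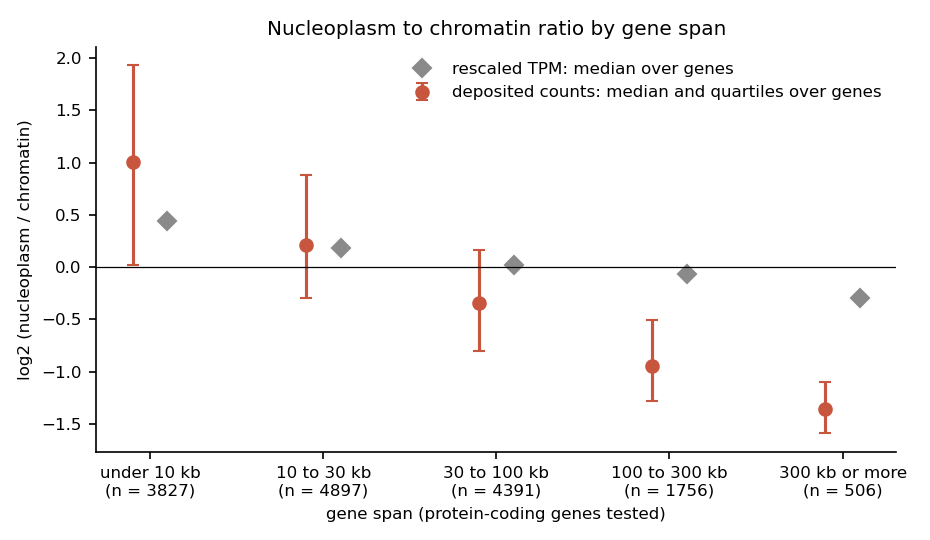
Log2 ratio of nucleoplasm to chromatin by gene span for the protein-coding genes tested in mCtx. Red circles with bars give the median and quartiles over genes in the deposited counts, falling from 1.01 under 10 kb to -1.36 at 300 kb or more, and grey diamonds give the median in rescaled TPM, from 0.44 to -0.30.

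Long neuronal genes held the highest counts in chromatin. Ptprd, a receptor tyrosine phosphatase that organizes synapses, was at 7115, 8782 and 6873 CPM in nucleoplasm and 15996, 19825 and 21657 CPM in chromatin, the highest mean count level there. Every chromatin library was above every nucleoplasm library, with a log2 fold change of -1.34. Other genes among the 5 highest were the adhesion gene Opcml (-1.78), the RNA-binding protein gene Celf2 (-1.37) and the neuregulin gene Nrg3 (-1.24). Counts over a gene span grow with its length, so these ranks are not ranks of molecules. In rescaled TPM Ptprd, Opcml, Celf2 and Nrg3 were lower in nucleoplasm as well (-0.54, -0.81, -1.35 and -1.30).

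The largest falls among named protein-coding genes at 10 CPM or more were as follows. Glis1, a zinc finger transcription factor gene, was at 7.97, 7.47 and 5.80 CPM in nucleoplasm and 44.8, 45.9 and 40.1 CPM in chromatin (log2 fold change -2.62, SE 0.25). Tcf7l1, a repressor of Wnt target genes, was at 8.51, 9.17 and 6.46 against 45.3, 45.3 and 41.2 CPM (-2.45), and the kinase-like gene Ulk4 was also among them (-2.35). Neither Glis1 nor Tcf7l1 overlapped between fractions. The ligand gene Wnt5b (-2.40) changed sign in rescaled TPM (0.35). At 100 CPM or more the largest falls took in Wwox (-2.29), the cell adhesion genes Kirrel3 (-2.18) and Dscaml1 (-2.14), the receptor tyrosine kinase gene Alk (-2.18), the acid-sensing channel gene Asic2 (-2.17), Fam19a5 (-2.17), the postsynaptic scaffold gene Dlgap2 (-2.16) and the synapsin gene Syn3 (-2.15). Of these, Asic2 and Fam19a5 were higher in nucleoplasm in rescaled TPM (0.90 and 0.70).

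A minority of long genes went against their span class. Of 2262 protein-coding genes of 100 kb or more, 77 were higher in nucleoplasm and 1769 were lower. Among the 77 were genes for axonal transport and microtubules, picked here after their values were seen. Kif5c, a kinesin heavy chain gene, was at 2915, 2732 and 2987 CPM in nucleoplasm and 862, 874 and 837 CPM in chromatin (1.75). Kif1b, a kinesin that carries synaptic vesicle precursors, was at 3014, 2967 and 3168 against 1008, 1026 and 994 CPM (1.60), and Mapt, the tau gene, at 1764, 1633 and 1731 against 657, 658 and 590 CPM (1.43). In each of these the fractions were well apart. The adenylyl cyclase gene Adcy1 rose by 2.09 and the dendritic Map2 by 0.62. Only 3 genes of 300 kb or more were higher: Reln (1.02), which encodes a secreted guide of cortical layering, the cytoskeletal crosslinker gene Macf1 (0.45), and Gm20388 (0.90), a readthrough model of 4435 kb that spans other genes and whose rescaled TPM was near even (-0.09).

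Neuronal excitability genes were mostly lower in nucleoplasm by counts. Of 34 glutamate and GABA receptor genes tested, 24 were lower and 3 higher, with a median of -0.93. Grin2a, an NMDA receptor subunit gene of 417 kb, was at 186, 218 and 172 CPM in nucleoplasm and 791, 865 and 870 CPM in chromatin. Its fractions were far apart, with a log2 fold change of -2.13 (SE 0.21, adjusted p = 3.2e-09). The 3 higher genes were the metabotropic receptor gene Grm2 (2.48), the GABA-B receptor gene Gabbr1 (1.60) and the obligatory NMDA receptor subunit gene Grin1 (0.89). Grm2 was at 49.4, 43.6 and 49.5 against 10.1, 8.51 and 6.93 CPM, with no overlap. Gria2, an AMPA receptor subunit gene, was at 1518, 1661 and 1607 against 1647, 2007 and 2219 CPM, which overlapped (-0.30, adjusted p = 0.094). In rescaled TPM the receptor list had the opposite balance, with 19 of 31 higher, 6 lower and a median of 0.36, and Grm3 moved from -0.45 to 2.04. The direction for this list therefore differed between the deposited counts and TPM, and the cause was not tested.

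Voltage-gated channels followed the receptors. Of 36 genes, 25 were lower and 7 higher, with a median of -1.17 in counts and 0.08 in rescaled TPM. Kcnip4, a potassium channel-interacting protein gene of 1135 kb, was at 2075, 2551 and 1928 against 4882, 5959 and 6428 CPM. Its fractions did not overlap (-1.40), and it was also lower in rescaled TPM (-0.94), whereas the A-type potassium channel gene Kcnd2 was at -1.27 in counts and 1.05 in rescaled TPM. The higher genes included the sodium channel beta subunit genes Scn3b (1.09) and Scn2b (0.90), with Kcna2 (1.51), Kcna1 (1.02), Cacna2d2 (0.70) and Scn2a (0.42). Of 32 synaptic scaffold and release genes, 10 were higher (31.2%) and 12 lower (37.5%), beside 27.6% and 30.2% over all genes, with a median of 0.04. The balance turned to 15 higher and 10 lower with total counts and to 19 higher and 5 lower in rescaled TPM (median 0.53). The higher ones included the release regulators Cplx2 (2.67), Syt4 (2.62) and Rab3a (2.59) and the scaffold gene Dlg4 (1.27), and the lower ones Dlgap2, Syn3, Dlgap1 (-1.78) and Shank2 (-1.53).

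Regulators of the neuronal nucleus were divided. Of 32 cortical transcription factor genes, 12 were higher (37.5%) and 14 lower (43.8%), beside 27.6% and 30.2% over all genes. Their median was -0.41 (-0.02 with total counts and 0.22 in rescaled TPM). Neurod6, a factor of excitatory cortical neurons with a gene of 3.45 kb, was at 143, 141 and 149 CPM in nucleoplasm and 23.7, 31.9 and 31.5 CPM in chromatin (2.31). Every nucleoplasm library of Neurod6 was above every chromatin library. Of 30 splicing and RNA-binding regulator genes, 20 were lower and 2 higher, with a median of -0.75. With total counts 14 were lower and 7 higher (-0.36), and in rescaled TPM 14 were lower and 6 higher (-0.19). Rbfox1, which controls neuronal exon choice, was at 1849, 2272 and 1696 against 7396, 8427 and 8504 CPM (-2.06), with 0.40 in rescaled TPM. Of 30 genes for nuclear pores, lamina and export, 12 were higher (40.0%) and 7 lower (23.3%), beside 27.6% and 30.2% over all genes, and the higher ones were led by Banf1, the export GTPase Ran (2.38) and the export adaptor Alyref (1.61).

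Immediate early genes are switched on by neuronal activity. Of 30 tested, 11 were higher (36.7%, beside 27.6% of all genes) and 2 lower, with a median of 0.67. In rescaled TPM 5 of 25 were higher, with a median of 0.14. Arc was at 1.56, 1.16 and 1.83 against 0.307, 0.955 and 0.509 CPM (1.31, adjusted p = 0.038), and Fos at 3.36, 3.93 and 5.72 against 1.23, 1.04 and 1.53 CPM (1.78, adjusted p = 0.056). Neither gene overlapped between fractions, yet only Arc passed. The most raised was the AP-1 gene Jund (2.68), and the lower ones were Nr4a3 (-0.63) and Homer1 (-0.58).

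Genes with detained introns, whose spliced but incomplete transcripts are known to be held in the nucleus, were near even. Of 37 such genes 10 were higher and 10 lower, with a median of 0.08, beside 27.6% higher and 30.2% lower over all genes. With total counts 22 of the 37 were higher and 1 lower, a scaling with which 67.7% of the calls over all genes were higher. The kinase gene Clk1 was at 97.5, 109 and 99.9 CPM in nucleoplasm and 112, 121 and 131 CPM in chromatin (-0.25, adjusted p = 0.14). Clk4 was at 60.8, 70.8 and 65.1 against 80.9, 88.8 and 102 CPM (-0.47, adjusted p = 0.0031). For both kinases the chromatin libraries were the higher, without overlap. The helicase gene Ddx5 rose most (1.24) and Clk2 fell most (-1.02).

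Long noncoding RNAs known to work in the nucleus were mostly on the chromatin side. Of 12 tested by counts, 11 were lower in nucleoplasm and none was higher, with a median of -0.83. With total counts, however, 4 were lower, and in rescaled TPM 7 were lower and 1 higher. Xist was at 24.2, 116 and 201 CPM in nucleoplasm and 356, 1149 and 3306 CPM in chromatin. The libraries of each fraction spread widely, yet the same-numbered chromatin library was 14.7, 9.87 and 16.5 times the nucleoplasm library. The log2 fold change was -3.82 (SE 0.71, edgeR adjusted p = 0.00014). The edgeR adjusted p was 0.050 when only the mCtx libraries of these fractions were fitted, and 4.8e-18 with the replicate number as a block. The Y-linked gene Uty varied between libraries as well, at 83.8, 78.4 and 10.4 CPM in nucleoplasm and 158, 143 and 28.8 CPM in chromatin, so the libraries numbered 3 were the lowest for Uty and the highest for Xist. Tsix overlaps Xist on the other strand and its value (-3.42) cannot be told apart from that of Xist. Airn, which silences imprinted genes in cis, was at 9.45, 9.48 and 7.85 against 40.1, 41.7 and 41.2 CPM (-2.20), and Meg3, an imprinted nuclear RNA, at 894, 1008 and 945 against 1725, 1831 and 1757 CPM (-0.90). Firre, which helps anchor the inactive X chromosome, was at 20.9, 21.0 and 21.3 against 42.4, 42.5 and 41.2 CPM (log2 fold change -1.0). All 3 were higher in every chromatin library.

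Malat1 was not called different by counts. This RNA, which resides in nuclear speckles, was at 9157, 9437 and 9924 CPM in nucleoplasm and 8041, 9656 and 10197 CPM in chromatin, with ranges that overlapped (0.03, adjusted p = 0.95). In TPM it was at 2056, 1951 and 1942 against 3318, 5008 and 4995, with every chromatin library higher, and its rescaled log2 fold change was -0.76 (SE 0.25, limma adjusted p = 0.012). Neat1, the scaffold of paraspeckles, was at 13, 12.4 and 12.1 against 24.4, 24.9 and 21.8 CPM (-0.92, adjusted p = 0.036), a call lost with total counts (adjusted p = 0.24), in rescaled TPM (adjusted p = 0.25) and when any 1 of the 6 libraries was left out, but stronger with only the compared groups (adjusted p = 9.3e-07). Several other imprinted or nuclear noncoding RNAs were tested in TPM only. Snhg14, the host transcript of the Prader-Willi snoRNA clusters, was at 458, 395 and 326 TPM in nucleoplasm and 2468, 2251 and 2061 TPM in chromatin (-2.15). Kcnq1ot1 (-1.80), Mirg (-2.18), Miat (-0.77) and Rian (-0.59) were lower too. Peg13, an imprinted RNA expressed in brain, went the other way at 57.0, 45.6 and 49.3 against 12.9, 14.2 and 12.9 TPM (2.14), without overlap.

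Genes annotated as snoRNAs were among the furthest towards chromatin. Of 309 tested snoRNA genes, 144 were lower and 7 higher, with a median of -0.91. Only 27 snoRNA genes averaged 10 CPM or more, and of these 15 were lower and 3 higher. Their reads can come from the mature snoRNA, where it passes the size limit, or from the intron that holds it, and the counts do not separate these forms. The sequences below, from the GENCODE vM21 transcripts of the GRCm38 build, belong to the snoRNAs with the largest falls among those averaging at least 10 CPM and are written 5′ to 3′ with the ACA box of the H/ACA class in capitals.
Gm25291, chr11:51737779-51737922, minus strand, inside Sec24a: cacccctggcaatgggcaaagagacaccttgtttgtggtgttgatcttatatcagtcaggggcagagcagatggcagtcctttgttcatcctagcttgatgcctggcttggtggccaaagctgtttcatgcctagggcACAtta
Gm22988, chr11:69669635-69669778, minus strand, inside Eif4a1: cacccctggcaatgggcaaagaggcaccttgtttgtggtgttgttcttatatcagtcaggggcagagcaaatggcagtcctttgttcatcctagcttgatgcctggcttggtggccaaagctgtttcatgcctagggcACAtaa

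Which form of these snoRNAs was counted was not tested. Both are 144 nt long, under the 200 nt limit given for the RNA. Both have the ACA box starting at position 139, 3 bases before the 3′ end. They differ at 4 positions, counted from the 5′ end with the base of Gm25291 first (A24G, A44T, G70A and T143A), an identity of 97.2%, so how reads were shared between them is uncertain. Gm22988 was at 93.6, 112 and 73.6 CPM in nucleoplasm and 946, 544 and 472 CPM in chromatin, and Gm25291 at 5.16, 6.47 and 4.92 against 66.2, 36.6 and 34.4 CPM. Both were higher in every chromatin library, with log2 fold changes of -2.81 (SE 0.47) and -3.05 (SE 0.35). Eif4a1, a translation initiation helicase gene and the host of Gm22988, was at 385, 394 and 380 against 1035, 621 and 544 CPM (-0.92). In rescaled TPM Eif4a1 rose by 1.84. Sec24a, a coat protein gene of secretory vesicles and the host of Gm25291, was at -1.22.

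Across the genome, snoRNA genes sat further towards chromatin than the genes that hold them, though many of these snoRNA genes had low counts. Of 238 snoRNAs inside a tested host on the same strand, 219 had a lower log2 fold change than the host, and the medians were -0.91 for snoRNAs and 0.41 for hosts. Of the 105 called lower, 50 lay in hosts called higher in nucleoplasm, 40 in hosts called lower and 15 in hosts that were not called. A host's count includes reads over its snoRNA, so the measures are not independent. Other noncoding classes were also more often lower than higher. Of 57 sense-intronic genes 46 (80.7%) were lower and 1 higher (median -1.66). Of 21 small Cajal body RNAs 10 (47.6%) were lower and 1 higher. For lincRNAs and antisense genes the medians were -0.67 and -0.72. Their lower shares of 27.8% and 31.6% were near the 30.2% of all genes, and their higher shares were 5.38% and 3.49%, beside 27.6%. The unnamed gene ENSMUSG00000047011 (-2.54), inside Map4, and Gm13189 (-2.31), inside Frmd4a, were with Gm13052 (-2.66) among the 10 largest falls.

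Of 8 structured RNAs of RNA polymerase III and related RNAs, 3 were higher in nucleoplasm (37.5%, beside 27.6% of all genes) and none was lower. In rescaled TPM 6 of 10 were higher and 2 lower. Rn7sk, which holds the elongation factor P-TEFb inactive, was at 2587, 2614 and 2825 CPM in nucleoplasm and 1478, 1299 and 1360 CPM in chromatin (0.96). Rpph1, the RNA of ribonuclease P, was at 614, 583 and 663 against 176, 166 and 183 CPM (1.82), and Rn7s6 also rose (2.62). Rmrp, the related RNA of ribonuclease MRP, was at 943, 906 and 881 against 1688, 945 and 931 CPM (-0.38, adjusted p = 0.20), and its fractions overlapped. Both Rn7sk and Rpph1 were higher in every nucleoplasm library than in every chromatin library. In mCtx cytoplasm, however, Rn7sk was at 31693 ± 2973 CPM, Rpph1 at 13165 ± 126 CPM and Rmrp at 5222 ± 310 CPM (SD, n = 3). These levels were far above those of both nuclear fractions, and the cause was not tested.

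**Figure D4:**
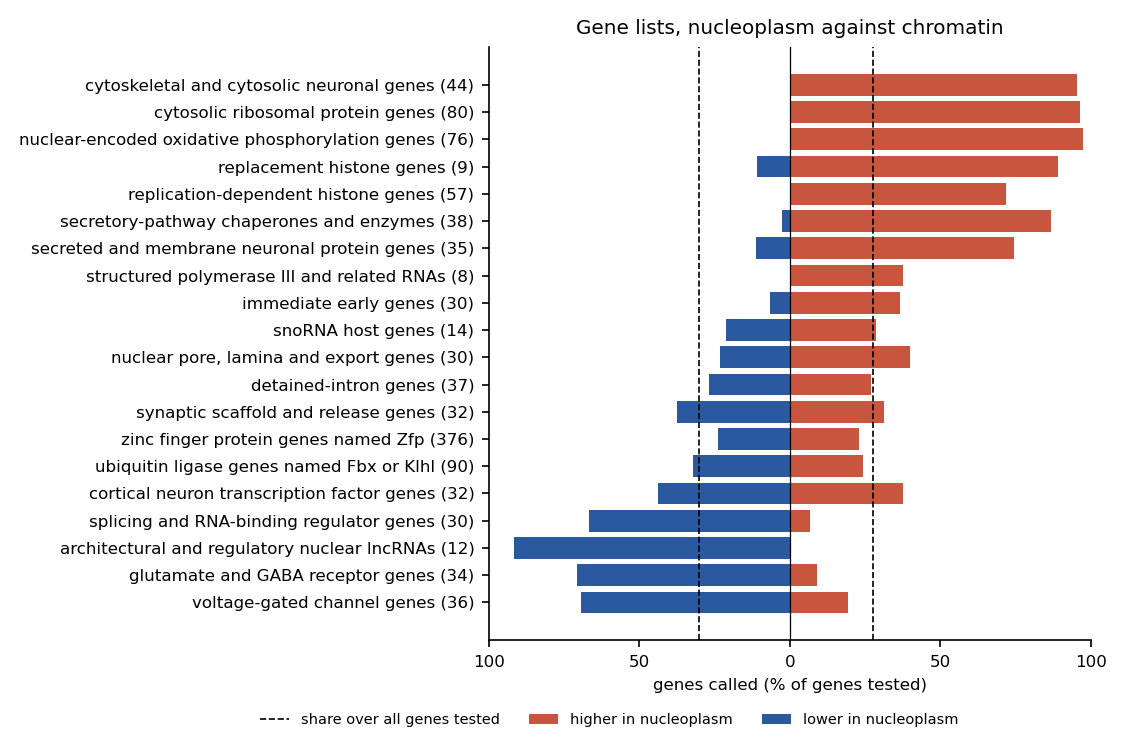
Share of the tested genes of each list called higher (red, to the right) or lower (blue, to the left) in nucleoplasm than in chromatin of mCtx, in percent, with the number tested in brackets. Dashed lines give the shares over all genes, 27.6% higher and 30.2% lower. Ribosomal protein genes had 77 of 80 higher, and lncRNAs 11 of 12 lower.

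Counts and TPM called opposite directions for a set of genes. Of 14914 genes tested by both, 3705 were higher in both, 2556 were lower in both, 625 were lower by counts and higher in rescaled TPM, and 130 were higher by counts and lower in rescaled TPM. The 625 were protein-coding in 620 cases and had a median span of 104 kb, against 12.8 kb for the 130. Among genes with the largest disagreement towards counts, Rps12 holds Snora33, the phosphorylase kinase gene Phkg1 overlaps Chchd2, Gm15344 lies inside Hsp90b1 and Gm20427 overlaps Slc39a7, each on the same strand, and Gm16163 overlaps 2810004N23Rik on the other strand. Their rescaled TPM values were -0.42, -1.63, -1.71, -0.53 and -0.41, and no direction is drawn for them here. In the other direction Wnt5b, Asic2, Fam19a5, Rbfox1 and the follistatin-like gene Fstl4 were lower by counts and higher in rescaled TPM.

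The same ratio was then compared with that of mNPC and mESC, cell types whose nucleoplasm and chromatin libraries are separate from those of mCtx. Log2 fold changes over 15288 genes at 1 CPM or more had a Pearson r of 0.72 with those of mNPC and of mESC. The genes share a count table and annotation and are not replicates. In the interaction test, 3698 genes (20.3%) were shifted further towards nucleoplasm in mCtx than in mNPC and 2766 (15.2%) less, and against mESC 3028 (16.6%) and 1684 (9.23%). The sign was the same against both for 1624 (8.90%) and 955 (5.23%) genes. With total counts the median of all genes moved by 0.63 against mNPC and by 0.53 against mESC, and the differences below are relative to the other genes of each comparison.

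The lists of neuronal genes differed in how their ratio compared with the other cell types. Of 44 cytoskeletal and cytosolic neuronal genes, 19 had a higher ratio in mCtx than in mNPC and 1 a lower one, and 31 and none against mESC. Of 32 synaptic scaffold and release genes, 20 were higher and 1 lower against mNPC, 24 and 1 against mESC, and 16 were higher against both. Rab3a, a vesicle GTPase gene, was at 108, 94.7 and 100 CPM in nucleoplasm and 19.9, 14.4 and 16 CPM in chromatin of mCtx. In mNPC it was at 5.60, 7.23 and 7.17 against 7.90, 11.3 and 9.58 CPM. The fractions of Rab3a were thus apart in opposite directions, and the log2 ratio was higher in mCtx by 3.11 than in mNPC (SE 0.25, adjusted p = 4.5e-10) and by 3.06 than in mESC. Of 32 cortical transcription factor genes 15 were higher against mNPC and 15 against mESC, with 2 and none lower. Against mNPC the other neuronal lists did not share this balance, with 6 higher and 19 lower of 35 secreted and membrane protein genes, 5 and 9 of 34 receptor genes, and 8 and 8 of 36 channel genes. Over all genes 20.3% were higher and 15.2% lower against mNPC. Against mESC these lists had 14, 14 and 16 higher and 3, 1 and 1 lower, beside 16.6% higher and 9.23% lower over all genes.

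Detained-intron genes separated mCtx from mNPC. All 37 had a higher ratio in mCtx than in mNPC, and their median log2 fold change was 0.08 in mCtx and -1.18 in mNPC. Against mESC 3 were higher and 4 lower, but 21 were higher and 1 lower with total counts. Against mNPC all 37 were higher also with total counts and with median-ratio factors, and 29 were higher in rescaled TPM with none lower. The zinc finger genes named Zfp, a large family of mostly repressors, had 169 of 376 higher and 6 lower against mNPC, and 119 and 12 against mESC. Over all genes 20.3% were higher and 15.2% lower against mNPC, and 16.6% and 9.23% against mESC. With total counts the Zfp genes had 300 higher and 1 lower against mNPC, and 250 and 2 against mESC. In rescaled TPM 102 of 361 were higher and 22 lower against mNPC, and 92 and 26 against mESC.

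Secretory-pathway messages were the reverse. None of the 38 had a higher ratio in mCtx than in mNPC or mESC, 34 were lower against mNPC and 24 against mESC, and 22 were lower against both. With total counts 23 were lower and 1 higher against mNPC, and 8 were lower and 3 higher against mESC. In rescaled TPM 35 were lower against mNPC and 29 against mESC. The median difference of the list from mNPC was -1.30 in counts. Crtap and P3h1 are not members of this list and were named for being among the largest differences from both other cell types. Crtap, which encodes a partner of collagen prolyl 3-hydroxylase in the endoplasmic reticulum, was at 4.45, 3.85 and 4.40 CPM in nucleoplasm and 3.89, 4.34 and 3.67 CPM in chromatin of mCtx. In mNPC it was at 21.2, 27.1 and 31.4 against 3.48, 2.85 and 2.21 CPM. The mCtx fractions of Crtap overlapped while those of mNPC were well apart, and the log2 ratio was lower in mCtx, at -3.12 (SE 0.31, adjusted p = 1.1e-08). P3h1, the hydroxylase gene itself, was at 9.76, 9.48 and 11 against 15, 14 and 12.5 CPM in mCtx and at 72.2, 92.4 and 85.6 against 13.1, 13.6 and 13.3 CPM in mNPC, opposite directions without overlap. Ribosomal protein genes had 39 of 80 lower and 1 higher against mNPC, and 2 lower and 14 higher against mESC, and with total counts 3 were lower and 13 higher against mNPC. Oxidative phosphorylation genes had 44 of 76 lower and none higher against mNPC, but 15 lower and 15 higher with total counts. Mitochondrially encoded genes took a larger part of nucleoplasm counts in mNPC and mESC than in mCtx. Counts without them were 14490729 of 15718994 in mNPC nucleoplasm library 2 and 12347577 of 17128653 in mESC nucleoplasm library 2. In mCtx nucleoplasm library 3 they were 15530024 of 15896164. The part of this in the differences above was not tested.

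**Figure D5:**
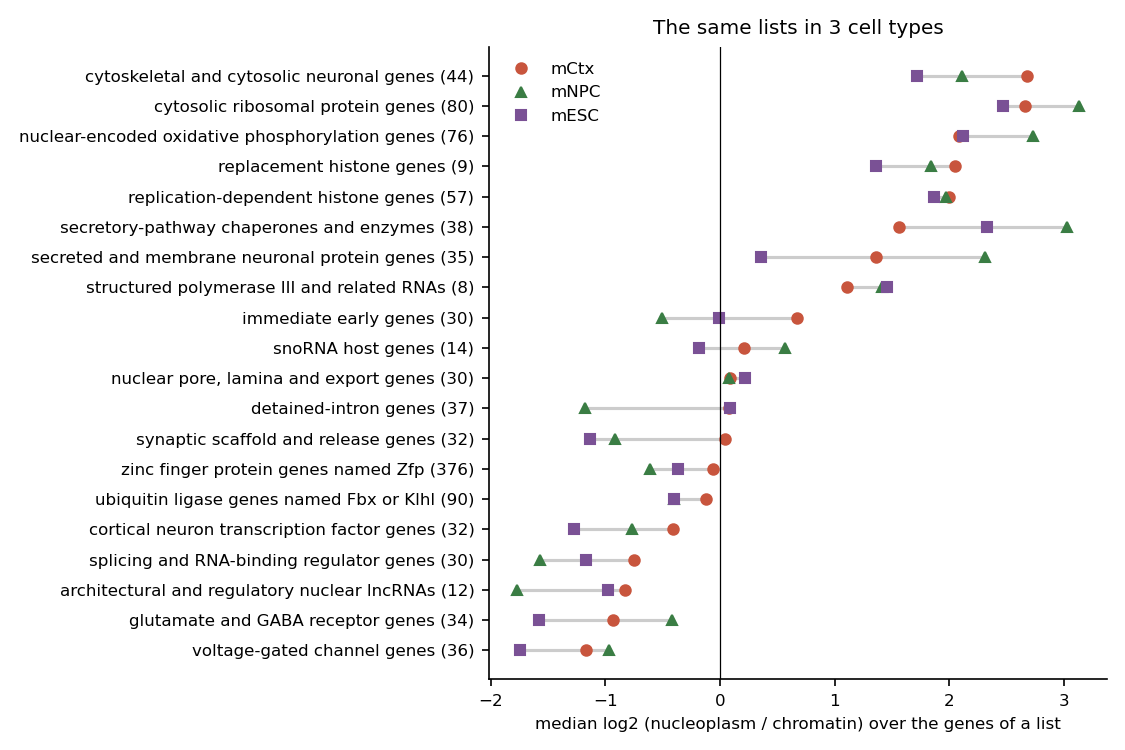
Median log2 ratio of nucleoplasm to chromatin over the tested genes of each list in mCtx (red circles), mNPC (green triangles) and mESC (purple squares), with the number of genes in brackets. The detained-intron list lay at 0.08 in mCtx and -1.18 in mNPC, and the secretory list was lowest in mCtx (1.56).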

How the data were processed

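Ribosomal RNA-depleted RNA was sequenced by the authors as stranded 100 bp paired reads, per the labels' protocols, and the mm10 build and the tools kallisto, STAR and featureCounts are listed, without roles, per the submitters' processing notes. The authors deposited whole-number read counts per gene over 27 libraries, whose length column equals the gene span. The deposited chromatin columns are also whole numbers and were entered under the unit expected count for a reason of column naming alone. The authors also deposited TPM, used as a check on the log2(TPM + 1) scale.

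Genes on chrM were set apart. The counts of all 27 libraries were fitted in edgeR 4.0.16 (R 4.3.3) with 1 coefficient for each of 9 groups, trimmed-mean scaling, filterByExpr and the quasi-likelihood test, with Benjamini-Hochberg adjustment at 0.05 over all genes. CPM used effective library sizes of nuclear genes. TPM were fitted in limma 3.58.1 after rescaling by the median ratio, and this replaces no count test. The tests were tested on simulated data. Alternatives were DESeq2 1.42.0, other scalings and filters, a 2-fold test, only the compared groups, the replicate number as a block and each library left out.

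Gene spans came from the deposited count table, and gene names, gene types and exon numbers from GENCODE vM21. Genes named are the 10 largest changes in each direction at a mean of 10 CPM and at 100 CPM with groups that do not overlap, the 5 highest in each fraction, the 5 largest differences in each direction from both other cell types, the 5 largest disagreements of counts and TPM, list members and examples chosen after their values were seen. The members and lists were chosen with earlier results of these data known. Strand setting and overlap rules are not given in the sources used here, so counts of overlapping or antisense genes are uncertain.

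Deviations from group means of same-numbered libraries had correlations of 0.082, 0.047 and 0.042. The labels do not say that same-numbered libraries are pairs, and the numbers were not taken as pairs in the main test. Xist and Uty nevertheless varied with the number in both fractions, and a shared source of same-numbered libraries was not tested. Some genes met by the naming rule or in the lists are not reported here.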

Additional observations from a re-analysis of the deposited data

Results flagged for a closer look

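The genes below had the largest differences in their nucleoplasm to chromatin ratio between mCtx and both other cell types by the interaction test, on the log2 scale. Towards nucleoplasm in mCtx, Lrmda differed by 5.21 from mNPC and 4.01 from mESC. It was at 6.64 to 11.9 CPM in nucleoplasm and 7.17 to 8.07 CPM in chromatin of mCtx, and at 0.473 to 1.06 against 16.7 to 27.1 CPM in mNPC. The cortical transcription factor gene Tbr1 differed by 3.34 and 3.72, but was at most 0.930 CPM in every nuclear library of mNPC and mESC. The vesicle GTPase gene Rab3a differed by 3.11 and 3.06, and Mllt11 by 3.00 and 2.88. Gpr21, which lies inside Rabgap1 on the same strand, differed by 3.65 and 3.05.

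Towards chromatin in mCtx, the sushi-domain gene Susd2 differed by -4.46 from mNPC and -3.95 from mESC. The protease gene St14 differed by -3.11 and -3.35, and was at 0 to 0.306 CPM in the nuclear libraries of mCtx. Syngr2, inside the gene model Gm20708, differed by -2.81 and -3.13. The collagen-modifying genes P3h1 and Crtap differed by -3.10 and -2.77, and by -3.12 and -2.69.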

How the results depend on the processing

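Counts of genes called differed with the setting. For nucleoplasm against chromatin, 2050 genes were higher and 1164 lower at 2-fold or more. Lower calls were 13228 in TPM, 9455 in rescaled TPM, 15107 without a TPM filter, 8929 with a pseudocount of 0.1 and 3286 with total counts. For the difference from mNPC, higher calls were 552 at 2-fold and 7592 with total counts. Lower calls were 6542 in TPM, 6434 in rescaled TPM, 8432 without a TPM filter, 4285 with the pseudocount of 0.1, 682 at 2-fold and 1188 with total counts. For the difference from mESC, higher calls were 5285 without a TPM filter, 342 at 2-fold and 7237 with total counts. Lower calls were 5757 in TPM, 5685 in rescaled TPM, 7701 without a TPM filter, 3637 with the pseudocount of 0.1, 142 at 2-fold, 972 with only the compared groups and 533 with total counts. The cause was not tested.

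Leaving out 1 library gave 4646 to 4842 higher and 4878 to 5180 lower genes, 3077 to 3451 and 2438 to 2913 for the difference from mNPC, and 2653 to 3455 and 1389 to 1794 for that from mESC. The nucleoplasm minus chromatin differences in share ran from 1.93 to 2.07 percentage points for mitochondrial genes, 0.599 to 0.675 for mitochondrial ribosomal RNA, -25.2 to -23.5 for genes of 100 kb or more, 7.07 to 7.57 for genes under 10 kb and 0.604 to 0.664 for ribosomal protein genes.

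The replicate block gave 5439 higher and 6142 lower genes, 4541 and 3363 for the difference from mNPC, and 4116 and 2332 for that from mESC. Every sample correlated best with its own number, which is a hint from the data and not the design. With the block Xist had a log2 fold change of -3.72 (edgeR adjusted p = 4.8e-18) and Neat1 one of -0.92 (adjusted p = 3.5e-06).

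Of 1465 values of single genes, 1396 kept direction and call, 22 lost a call, 27 gained one and 20 turned sign. Of 362 values of list and span-class medians, 146 moved under an alternative. In rescaled TPM the sign turned for Asic2 (0.90), Eif4a1 (1.84), Erp44 (0.22), Fam19a5 (0.70), Fstl4 (0.56), Gm15344 (-1.71), Gm16163 (-0.41), Gm20388 (-0.09), Gm20427 (-0.53), Gria2 (0.23), H2afy (0.42), Malat1 (-0.76), Ndufs4 (2.36, and 0.31 with total counts), Phkg1 (-1.63), Rbfox1 (0.40), Rps12 (-0.42), Snap25 (0.98), Wnt5b (0.35) and Zfp423 (0.31). Single genes were not tried without a filter, at 2-fold, in unrescaled TPM or with the pseudocount of 0.1.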
